A study of Rattus norvegicus with 18 samples.

Results

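DDMB and DDEB are 2 of the 4 p-dialkoxy chlorobenzenes tested in this series, each at 300 µM for 24 h on rat hepatocytes, and the values below describe the genes that both moved the same way. The response was read on 12 of the 18 arrays of the series, 3 each for DDMB, DDEB and the DMSO groups VC_1 and VC_2. DDMB was compared with VC_1 and DDEB with VC_2, as the design text pairs them, because the arrays came from 2 chip lots. A gene was taken as shared when all 3 arrays of each compound lay above, or all 3 below, all 3 arrays of that compound's own control.

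All 4 groups were cryopreserved primary hepatocytes of male Sprague Dawley (SD) rats, thawed, kept in the supplier's medium for 24 h and then given vehicle or compound for a further 24 h. The labels give no age for the rats and do not say how many animals the cells came from. A p-value here therefore covers the variation from culture to culture, which may be technical. Frozen hepatocytes in culture lose part of their liver gene program, which limits them as a model of the liver. VC_1 and DDMB shared 1 slide, VC_2 shared a slide with DDEB replicates 1 and 2, and DDEB replicate 3 was on a slide of its own. Levels are the log2 processed Cy3 intensity minus the array's 75th percentile, so 0 is the level that 75% of probes lie under, and a difference of 1 is a change of 2-fold.

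Hepatocytes take up fatty acids and break them down in mitochondria, after transfer through the carnitine shuttle, and in peroxisomes, whose products are handed on as acetyl and chain-shortened esters. In rodent liver many of these enzymes are targets of the nuclear receptor PPAR alpha. The receptors CAR and PXR drive cytochrome P450 and conjugation genes when foreign compounds enter the cell. Retinoic acid receptors, heat shock factors and LXR drive further small sets, among them Cyp26a1, the small heat shock proteins and the sterol exporter Abcg5.

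All 10 hepatocyte markers lay well above background on all 12 arrays, and their summed linear level was 1825 to 2403 in VC_1, 1875 to 2480 in DDMB, 2325 to 3029 in VC_2 and 2802 to 2991 in DDEB. Each of the 12 arrays had 61.0% to 64.3% of its spots well above background, and none was saturated. Markers of other cell types were partly present: 4 of 11 macrophage, 8 of 12 stellate and 3 of 8 endothelial markers with a probe lay above background on all 12 arrays. The macrophage markers Cd163, Csf1r, Ptprc and Vsig4, the stellate markers Lrat and Lum and the endothelial markers Lyve1 and Tek lay above background on none of the 12. The ratio of a dim to a bright spike-in control was 1.98% to 2.04% in VC_1, 1.78% to 2.02% in DDMB and 1.73% to 1.83% in VC_2. It was 1.09%, 1.18% and 1.66% on the DDEB arrays, so that all 3 lay under VC_2. The part of this shift in the DDEB values was not tested.

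The 2 control groups did not vary independently. Deviations of single arrays from their group mean correlated over genes between VC_1 and VC_2 arrays of the same number, with r = 0.63, 0.47 and 0.81 for replicates 1, 2 and 3. Replicate 3 of either group ran against replicates 1 and 2 of the other, with r between -0.68 and -0.52. Deviations from a group mean cancel within the group, so these negative values largely follow from the r of replicate 3 and are not separate evidence. Since DDMB was set against VC_1 and DDEB against VC_2, a deviation common to both controls enters both changes with the same sign. The labels do not say whether same-numbered control arrays hold RNA of the same culture.

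**Figure D1:**
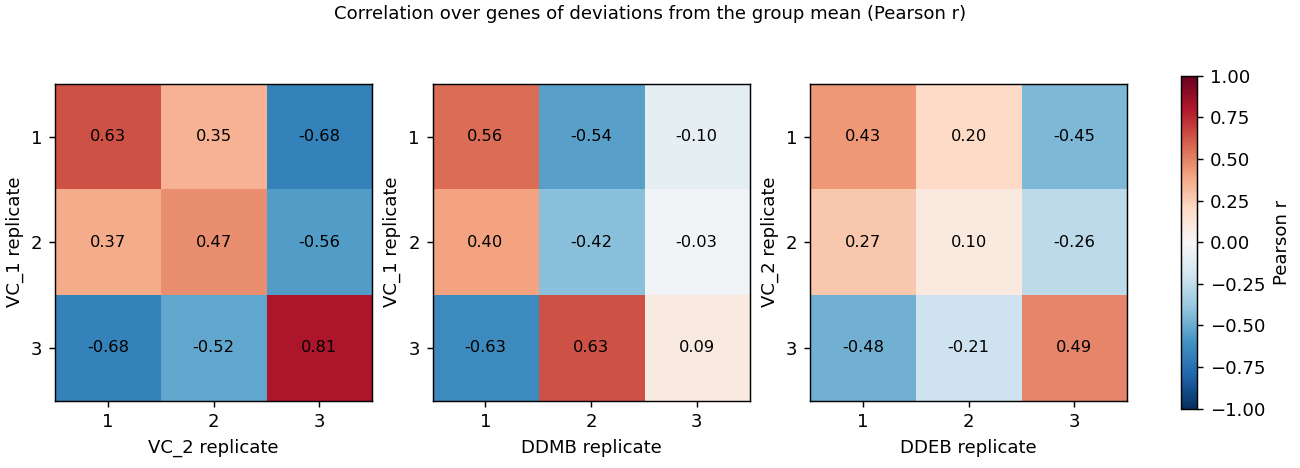
Pearson correlation over the 21574 genes tested of each array's deviation from its group mean, for VC_1 against VC_2, VC_1 against DDMB and VC_2 against DDEB, with replicate numbers on both axes. Same-numbered VC_1 and VC_2 arrays stand on the diagonal of the left panel at 0.63, 0.47 and 0.81. The middle panel has 0.56, -0.42 and 0.09 on its diagonal, and the right panel 0.43, 0.096 and 0.49.

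Counted by itself, the deviation common to both controls was about as large as the likeness of the changes. Taken by array number, the other terms offset most of it. Over all 21574 genes the covariance of the DDMB and DDEB changes was 0.0197 in squared log2 units. The covariance that same-numbered deviations of VC_1 and VC_2 alone put into it was 0.0188, or 95.4% of it. Deviations that DDEB shared with VC_1 and DDMB with VC_2 enter with the opposite sign, and those that DDMB shared with DDEB with the same sign. All 4 terms together summed to 0.00343, or 17.4%. That sum depends on the array numbers, which do not pair the DDMB arrays with the controls. DDMB replicate 2 deviated with replicate 3 of VC_1 (r = 0.633) and VC_2 (0.626) and against their replicate 2 (-0.421 and -0.371). The 17.4% is therefore not a measure of what the controls put into the likeness. The changes themselves correlated over genes with Pearson r = 0.28 and Spearman rho = 0.30, a description over genes that share arrays, scaling and probe brightness.

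At the level of arrays, 770 genes stood apart in both compounds the same way, 3.57% of the genes tested. Of these 518 were higher (2.4%) and 252 lower (1.17%), while 139 (0.644%) stood apart in opposite ways. DDMB arrays lay apart from VC_1 for 14.2% of genes and DDEB arrays apart from VC_2 for 16.5%. When each compound's arrays also had to lie outside all 6 DMSO arrays, 307 same-way genes and 45 opposite genes were left. Changes were small as a rule. Both compounds moved 14 genes up and 36 down by at least 1.5-fold, and 5 up and 5 down by at least 2-fold. The edge of the rule is fine: Tnfrsf21 was inside it with a gap between arrays of 3.56e-05 on the log2 scale, and Cpne9 was outside by 0.000355.

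Taken alone, DDMB raised 49 genes (0.227%) and lowered 71 (0.329%), and DDEB raised 155 (0.718%) and lowered 58 (0.269%). The strictest test asked each compound to pass on its own, taking the larger of the 2 p-values from limma and adjusting it over all genes. It called 9 genes, 0.0417% of those tested, of which 2 rose and 7 fell. Only Crat, Sstr3 and Omd among them carry a gene symbol in the reference table. The highest unnamed one was ENSRNOT00000012760, which rose by 1.14 with DDMB and 0.98 with DDEB, and M63574 and XM_006243027 were among those that fell. In a looser reading 38 genes (0.176%) passed with each compound separately and moved the same way, 15 up and 23 down, and 0 passed in opposite ways.

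**Figure D2:**
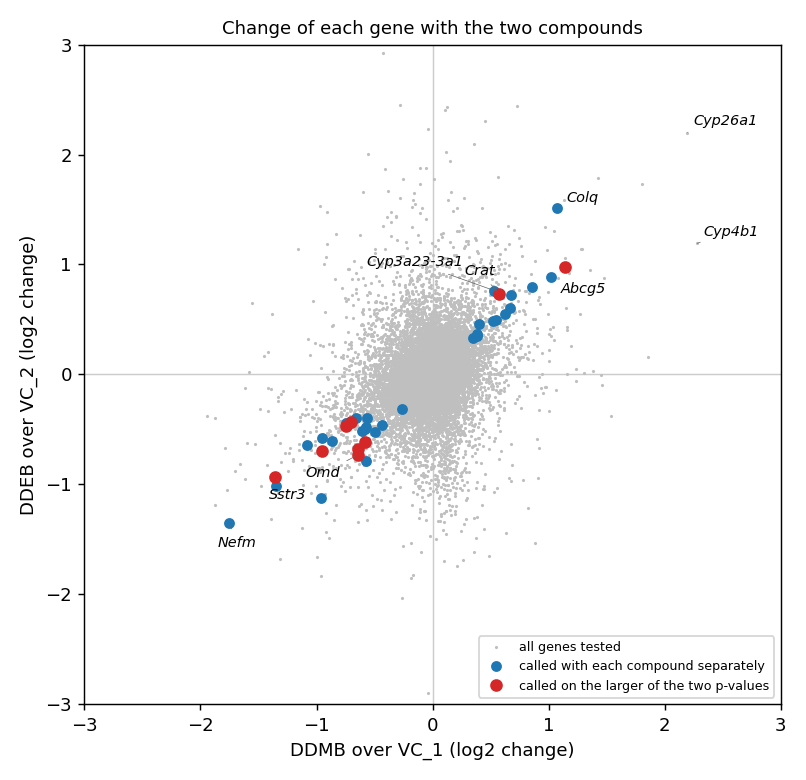
Log2 change with DDMB over VC_1 against log2 change with DDEB over VC_2 for each of the 21574 genes tested, both on the range -3 to 3. The 38 genes called with each compound separately (blue) and the 9 called on the larger p-value (red, drawn over them) lie in the quadrants of equal sign, while Cyp26a1 and Cyp4b1 lie farther out without being called with DDEB.

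Crat, the enzyme that moves acetyl groups between coenzyme A and carnitine, gave the clearest shared rise. Crat lay at 4.43, 4.37 and 4.37 on the VC_1 arrays and at 4.76, 5.09 and 5.04 on the DDMB arrays. With the other lot it lay at 4.45, 4.42 and 4.39 in VC_2 and at 5.13, 5.15 and 5.17 in DDEB. Every treated array was above every DMSO array of both groups, and the 6 DMSO arrays lay within a narrow band. The change was 0.57 ± 0.07 with DDMB and 0.73 ± 0.07 with DDEB (SE of the fit, n = 3 arrays a group), and the adjusted larger p was 0.013.

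Sstr3, a receptor for the inhibitory peptide somatostatin, gave the clearest shared fall. Sstr3 lay at 0.53, 0.76 and 0.66 in VC_1 and at -0.74, -0.54 and -0.84 in DDMB. It lay at 0.55, 0.91 and 0.81 in VC_2 and at -0.35, -0.21 and 0.04 in DDEB. The groups did not overlap, and the DDMB arrays were all lower than the DDEB arrays. Sstr3 fell by 1.36 ± 0.12 with DDMB and by 0.93 ± 0.12 with DDEB, with an adjusted larger p of 0.013.

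Omd, a small leucine-rich keratan sulfate proteoglycan of bone matrix, was the third named gene. Omd lay at 2.77, 2.79 and 3.07 in VC_1, against 2.07, 2.40 and 2.23 in DDMB. It lay at 2.76, 2.72 and 2.91 in VC_2, against 2.07, 2.11 and 2.00 in DDEB. It fell by 0.64 ± 0.10 and 0.73 ± 0.10, with an adjusted larger p of 0.0266. The summed level of 12 stellate and fibroblast markers was 8.17 to 12.8 in VC_1 and 5.75 to 8.16 in DDMB, which narrowly did not overlap. It was 7.92 to 12.8 in VC_2 and 7.83 to 11.6 in DDEB, which did. Of the 9 markers that passed the filter on dim probes, 4 were higher and 3 lower with both compounds, and their median DDMB change was 0.11. In such bulk samples fewer cells of a type and less RNA per cell cannot be told apart, and the part of this in the Omd values was not tested.

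The 9 calls rest on the whole design. With single arrays left out the count ran from 0 to 14, and it was 0 without VC_2 replicate 2, 2 without VC_2 replicate 1, 2 without DDEB replicate 1, 2 without DDEB replicate 2, 3 without DDMB replicate 3, 4 without VC_2 replicate 3, and 14 without DDMB replicate 1. Fitted on the 12 arrays alone, which leaves out the tighter CDMB and CDEB groups (median SD 0.0949 and 0.0743 against 0.136 to 0.188 in the other 4), the count was 0 and the adjusted larger p was 0.203 for Crat and Sstr3 and 0.368 for Omd. Taken one compound at a time, all 9 stayed called with both compounds whichever array was left out, with the larger adjusted p at most 0.0213 for Crat, 0.0271 for Sstr3 and 0.0444 for Omd.

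**Figure D3:**
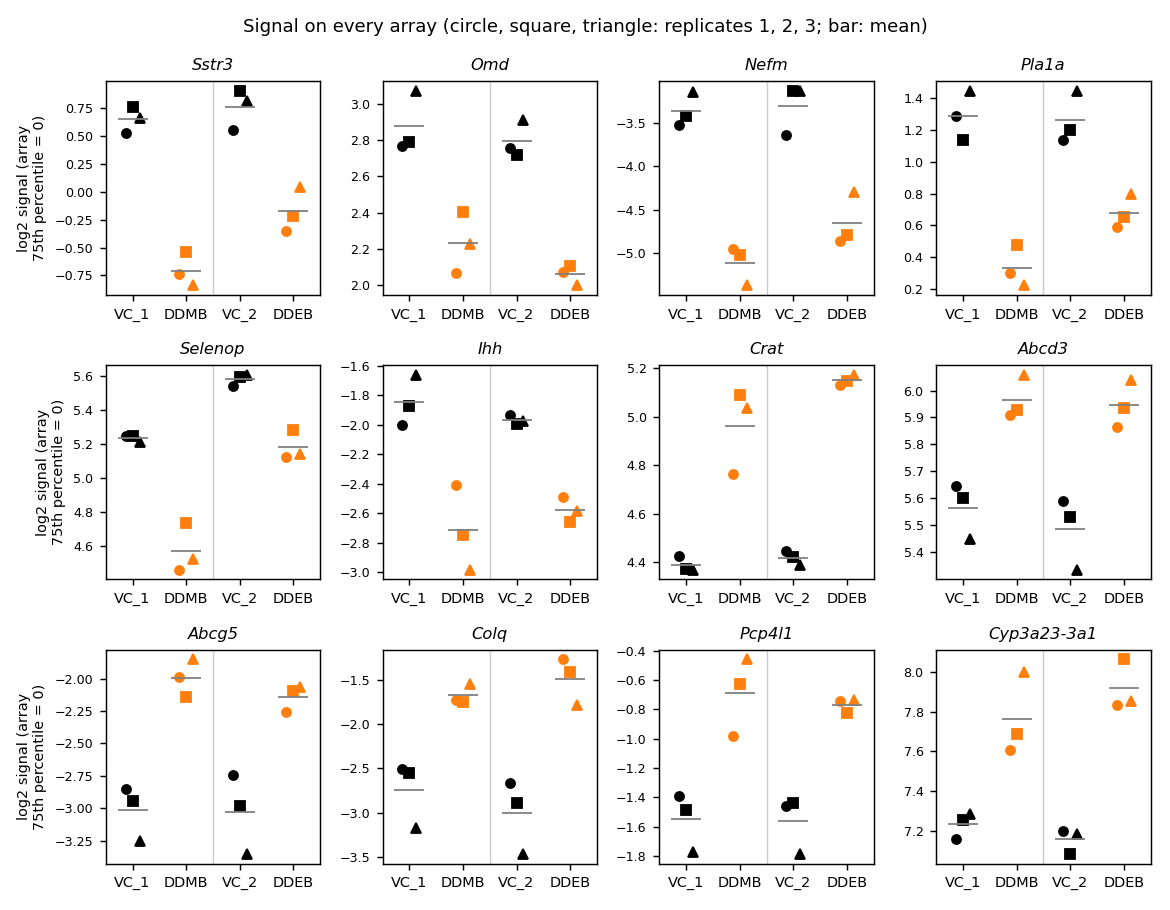
Log2 processed signal relative to the array's 75th percentile (vertical axis) of 12 genes on each of the 12 arrays, with DMSO arrays in black, treated arrays in orange, replicate numbers as symbols and group means as bars. Treated arrays stand apart from their own controls in every panel, and replicate 3 of both DMSO groups is the lowest DMSO array for Abcg5, Colq and Pcp4l1.

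To use both compounds at once, the mean of the 2 changes was tested. It called 665 genes (3.08%), 425 higher (1.97%) and 240 lower (1.11%), and 448 of them also had arrays apart in both. With same-numbered DMSO arrays treated as sharing a culture, an alternative chosen after the data were seen, 118 were called, and 108 of these had arrays apart in both. Without single arrays the count ran from 281 (without DDMB replicate 3) to 958 (without DDEB replicate 3), and 260 of the 665 stayed called throughout. The count was also lower by over 1.5 times without VC_1 replicate 1 (429), VC_1 replicate 2 (365), VC_2 replicate 1 (439), VC_2 replicate 2 (348) or DDEB replicate 2 (443). Below, "rose" and "fell" mean called for the mean effect. The shares over all genes tested, 1.97% and 1.11%, are to be read beside every list count. The adjusted p with the controls as a random block is given where it ends the call.

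Of 26 measured genes of peroxisomal fatty acid oxidation 11 rose and 0 fell, and 10 had arrays above their own controls in both compounds. The list's median change was 0.17 with DDMB and 0.30 with DDEB, beside 0.01 and 0.02 over all genes. With the random block 5 of the 11 stayed called, among them Acaa1a, Decr2, Crat and Abcd3. The list was drawn up with earlier results of these samples known, and its direction is not independent evidence.

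Abcd3, which carries long-chain acyl groups through the peroxisomal membrane, rose by 0.40 ± 0.08 and 0.46 ± 0.08. In VC_1 it lay at 5.65, 5.60 and 5.45, and in DDMB at 5.91, 5.93 and 6.06. In VC_2 it lay at 5.59, 5.53 and 5.34, and in DDEB at 5.86, 5.94 and 6.04. All 6 treated arrays lay above all 6 DMSO arrays. Abcd3 was called with each compound separately (adjusted p 0.0484 and 0.0199), and lost a call without any of the 12 arrays but DDEB replicate 3 (up to 0.265).

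The other peroxisomal genes leaned to one compound or missed one test. Decr2, the peroxisomal dienoyl-CoA reductase, rose by 0.32 with DDMB and 0.52 with DDEB (adjusted p of the mean 0.00605). Acaa1b, a thiolase, rose by 0.36 and 0.75, and Acot4, a thioesterase, by 0.44 and 0.40, with random-block adjusted p of 0.0591 and 0.0894. Ehhadh, the bifunctional hydratase and dehydrogenase, changed by 0.07 with DDMB and 0.65 with DDEB. Its mean effect was called, but not without DDMB replicate 3 or VC_2 replicate 2 (adjusted p up to 0.0538) nor with the random block (0.24). Catalase, Cat, was at -0.06 and 0.39 and was not called.

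Of 22 measured genes of mitochondrial fatty acid oxidation 12 rose and 0 fell, 6 had arrays above their controls in both, and the median change was 0.20 with DDMB and 0.31 with DDEB. Only Cpt2 and Eci1 stayed called with the random block, and 4 of the 12 did so through every left-out array. Eci1, which shifts double bonds of unsaturated chains, lay at 5.50, 5.40 and 5.75 in VC_1, 5.79, 6.17 and 6.23 in DDMB, 5.35, 5.27 and 5.70 in VC_2, and 6.02, 6.27 and 6.63 in DDEB. It rose by 0.51 ± 0.16 and 0.87 ± 0.16. Cpt2, the inner-membrane carnitine palmitoyltransferase, rose by 0.26 and 0.44.

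Cpt1a, the outer-membrane enzyme that gates entry, rose by 0.60 ± 0.21 and 0.61 ± 0.21, with equal sizes in both. Replicate 1 of DDMB lay within the range of VC_1. The call was kept only without VC_1 replicate 3, DDMB replicate 1, VC_2 replicate 3 or DDEB replicate 1 and was lost without each of the other 8 arrays (adjusted p up to 0.128) and with the random block (0.197). Acot1, an acyl-CoA thioesterase, rose by 0.85 ± 0.29 and 0.91 ± 0.29, and its call was lost without the same 8 arrays (up to 0.0975) and with the random block (0.158).

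**Figure D4:**
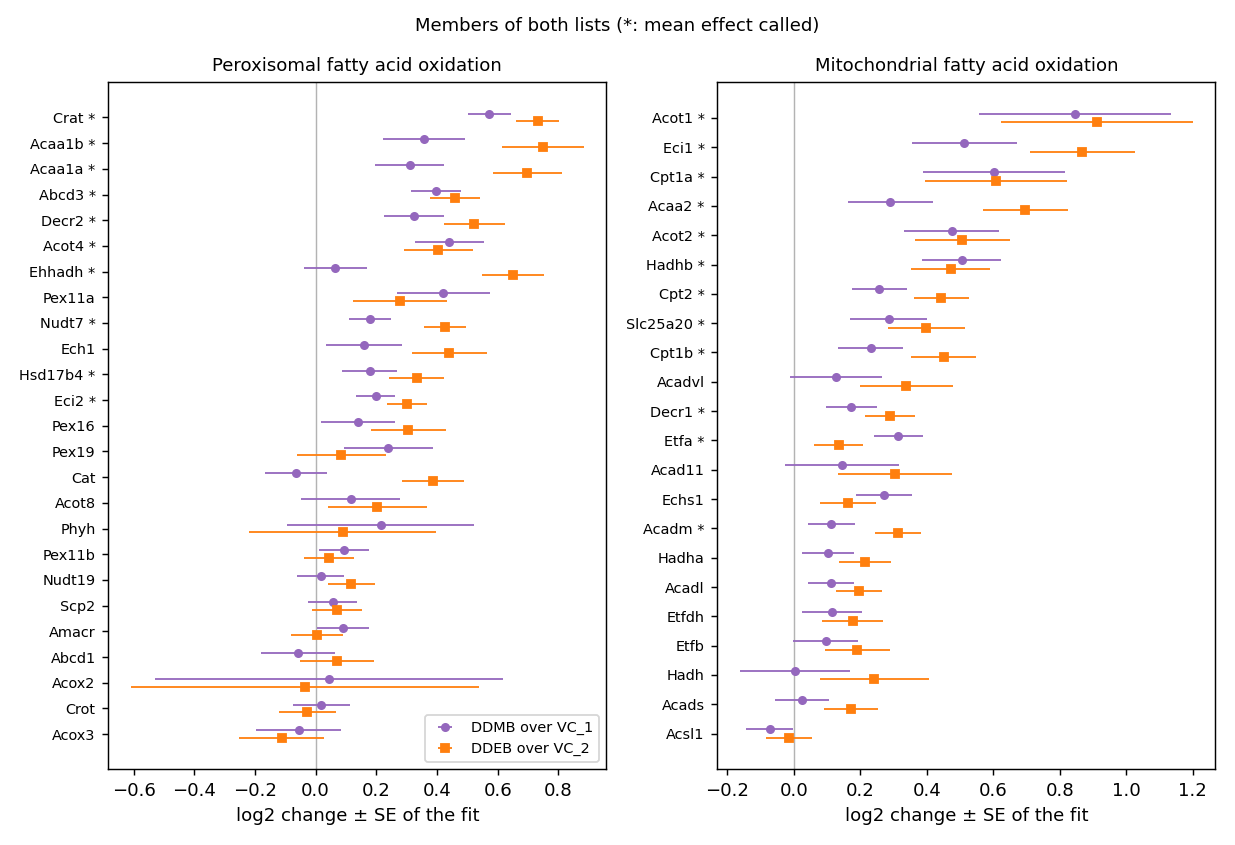
Log2 change ± SE of the fit (horizontal axis, n = 3 arrays a group) with DDMB (purple) and DDEB (orange) for 25 peroxisomal and 22 mitochondrial fatty acid oxidation genes, ordered by mean effect, with an asterisk where the mean effect was called. Of the 25 peroxisomal genes plotted 20 were higher with both compounds and 1 lower with both, and of the 22 mitochondrial genes 21 and 1. Over all 21574 genes tested, 7450 were higher with both and 5934 lower with both.

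Of 31 measured members of the fuel switch and ketogenesis list 4 rose and 0 fell. With the random block only Pdk4 stayed called, while Angptl4, Plin2 and Mgll did not (adjusted p 0.111, 0.0582 and 0.103). Without DDMB replicate 3 these 3 also lost their calls, and Angptl4 did so without VC_1 replicate 1 or 2, DDMB replicate 2 or VC_2 replicate 1 or 2 (up to 0.072, 0.0637 and 0.0534). Pdk4, the kinase that shuts pyruvate dehydrogenase, lay at -3.66, -3.45 and -3.56 in VC_1, -3.04, -2.81 and -2.81 in DDMB, -3.79, -3.51 and -3.79 in VC_2, and -3.24, -3.06 and -2.98 in DDEB. It rose by 0.67 ± 0.13 and 0.61 ± 0.13 and was called with each compound (adjusted p 0.038 and 0.0476). None of 33 respiratory chain genes was called, beside 3.08% of all genes tested. Of these 33, 23 were higher with both compounds, beside 7450 of all 21574 genes.

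Of the cytochrome P450 genes, Cyp3a23-3a1 rose with both. This steroid and drug hydroxylase, a PXR target in rat liver, lay at 7.16, 7.25 and 7.29 in VC_1 and at 7.61, 7.69 and 8.00 in DDMB. It lay at 7.20, 7.08 and 7.18 in VC_2 and at 7.84, 8.06 and 7.85 in DDEB. It was among the brightest genes described here and its groups did not overlap. The rise was 0.53 ± 0.10 and 0.76 ± 0.10 (adjusted p 0.0355 and 0.0053). Among 34 CAR and PXR targets 3 rose and 1 fell, beside 1.97% and 1.11% of all genes. The 1 that fell was Cyp2c11, the male-specific steroid hydroxylase, at -1.14 ± 0.13 with DDMB and -0.42 ± 0.13 with DDEB. The other risers of that list, Ugt2b1 and Gadd45b, lost their calls with the random block (adjusted p 0.103 and 0.0616).

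Among 11 genes of the Cyp4 list, which holds fatty acid hydroxylases, 3 rose and 1 fell, beside 1.97% and 1.11% of all genes. With the random block Cyp4b1 and Cyp4a3 stayed called, and Cyp4a1 and Cyp4f1 did not (adjusted p 0.0515 for each). Cyp4b1 rose by 2.28 ± 0.35 with DDMB and 1.19 ± 0.35 with DDEB, on arrays apart in both, and was called alone with DDMB (adjusted p 0.00794, against 0.134). Cyp4a1 changed by 0.16 ± 0.14 with DDMB and 1.02 ± 0.14 with DDEB. Cyp1a1, the AhR target, was at 3.37, 3.05 and 1.20 in VC_1 and 3.95, 3.55 and 1.79 in VC_2, so that replicate 3 was the low one in both control groups. Its changes of 0.74 ± 0.64 and 0.67 ± 0.64 were not called.

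Cyp26a1, the retinoic acid hydroxylase, had the largest shared change among named genes but a weak measurement. It lay at -5.77, -6.26 and -7.86 in VC_1, -3.26, -4.99 and -5.05 in DDMB, -5.93, -5.95 and -7.08 in VC_2, and -3.01, -3.54 and -5.81 in DDEB. In neither control group was it well above background on any array. Set against the background limit, the mean of the treated arrays was 2.96-fold higher with DDMB and 3.05-fold higher with DDEB. The DDEB value rests mainly on replicates 1 and 2, as replicate 3 (-5.81) lay close to VC_2 replicates 1 and 2 (-5.93 and -5.95). These folds take the lowest signal well above background as the control level and leave out the spread of the treated arrays. The mean effect had an adjusted p of 0.0312. The call was kept only without VC_1 replicate 1, DDMB replicate 2 or DDEB replicate 3 and was lost without each of the other 9 arrays (up to 0.0691) and with the random block (0.162).

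The stretch upstream of Cyp26a1 is shown because it holds the spaced repeat that retinoic acid receptors are known to bind. The letters searched were AGNTCA, any 5 bases and AGNTCA again, on both strands, in the 250 bases before each start in RefSeq promoters of GRCr8, and 0.084% of all promoters (23 of 27457) held them. For the fatty acid genes a PPAR-type repeat, AGGNCA, any 1 base and AGGNCA again, was searched in the same way. It was in 0.353% of all promoters, in 0 of 23 of the peroxisomal list and in 0 of 19 of the mitochondrial list. Among all shared genes with a symbol and a called mean effect it was in 1 of 253 (0.395%). That gene was C1h11orf86, also the 1 of 27 among the 30 largest shared changes. C1h11orf86 rose by 0.91 and 0.68 (random-block adjusted p 0.128). A match describes letters only, and no match says only that these letters are not in this window. The motifs were chosen with the expression values known. Capitals mark the match, on the reverse strand in both.
Cyp26a1, chr1:244883700-244883776, plus strand: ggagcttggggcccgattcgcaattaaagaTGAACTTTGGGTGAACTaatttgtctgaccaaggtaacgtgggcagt
C1h11orf86, chr1:211215340-211215404, minus strand: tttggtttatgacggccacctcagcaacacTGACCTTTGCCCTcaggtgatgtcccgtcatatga

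Abcg5, which pairs with Abcg8 as the sterol exporter of the canalicular membrane, rose with both compounds. It lay at -2.85, -2.94 and -3.25 in VC_1 and -1.99, -2.14 and -1.85 in DDMB, and at -2.74, -2.98 and -3.35 in VC_2 and -2.26, -2.09 and -2.06 in DDEB. Replicate 3 was the lowest of each DMSO group, and no treated array reached a DMSO array. The rise was 1.02 ± 0.16 and 0.89 ± 0.16 (adjusted p 0.00947 and 0.0204). It was the 1 member called for the mean effect among 11 sterol export and LXR targets. Of 24 cholesterol synthesis genes 0 were called, beside 3.08% of all genes tested.

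Of 22 heat shock chaperones 4 rose and 0 fell, beside 1.97% and 1.11% of all genes tested. The list's median was 0.10 and 0.07. Hspb1, a small heat shock protein, lay at 3.98, 3.87 and 3.61 in VC_1, 4.71, 4.50 and 4.61 in DDMB, 3.93, 3.86 and 3.62 in VC_2, and 4.41, 4.18 and 4.20 in DDEB. It rose by 0.78 ± 0.11 and 0.46 ± 0.11. Stip1 and Chordc1, co-chaperones, and Hspa9, the mitochondrial Hsp70, rose by 0.17 to 0.28 with each compound. They lost their calls with the random block (adjusted p 0.0554, 0.198 and 0.153). Chordc1 also lost its call without DDMB replicate 3 (0.0558), and Hspa9 without any 1 of 8 arrays (up to 0.0839). A heat shock element, GAA, TTC and GAA parted by any 2 bases, was found by the same search in 4 of 19 of the list's promoters, those of Hspa8, Hspd1, Hspe1 and Hsph1, and in 0.597% of all promoters. The matches of Hspd1 and Hspe1 are the same bases, read from opposite strands. None of the 4 genes was called.

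Among 39 genes of amino acid breakdown and the urea cycle 5 rose and 1 fell, beside 1.97% and 1.11% of all genes. Gls2, the liver glutaminase, was called with each compound, with 0.39 ± 0.06 and 0.35 ± 0.06. Tat and Hpd, successive enzymes of tyrosine breakdown, rose by 0.68 and 0.27 and by 0.39 and 0.32. Ass1, the argininosuccinate synthase of the urea cycle, rose by 0.65 and 0.26, and Kynu, the kynureninase, was the member that fell, by 0.32 and 0.23 (random-block adjusted p 0.0937).

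Genes better known from nerve cells moved in both directions, with 4 rising and 5 falling of 15, beside 3.08% called over all genes. This list too was drawn up with earlier results of these samples known, so its count is not independent evidence. Of the 9 called genes, Unc5d and Rprm lost their calls with the random block (adjusted p 0.201 and 0.145). Colq, the collagen tail of acetylcholinesterase, lay at -2.51, -2.56 and -3.18 in VC_1, -1.73, -1.75 and -1.55 in DDMB, -2.67, -2.89 and -3.47 in VC_2, and -1.27, -1.42 and -1.79 in DDEB. It rose by 1.07 ± 0.20 and 1.52 ± 0.20, and Pcp4l1 rose by 0.86 ± 0.13 and 0.79 ± 0.13. Nefm, the medium neurofilament chain, lay at -3.52, -3.42 and -3.15 in VC_1 and -4.95, -5.02 and -5.37 in DDMB. It lay at -3.64, -3.13 and -3.14 in VC_2 and -4.86, -4.80 and -4.29 in DDEB. Nefm fell by 1.75 ± 0.24 and 1.35 ± 0.24 (adjusted p 0.00457 and 0.0204), and Nefl, the light chain, was at -1.88 ± 0.38 and -1.19 ± 0.38 with DDEB arrays that overlapped VC_2.

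Further falls called with each compound included secreted and surface proteins. Pla1a, a phosphatidylserine phospholipase, fell by 0.96 ± 0.10 and 0.58 ± 0.10. Selenop, the selenium carrier of plasma, fell by 0.66 ± 0.07 and 0.40 ± 0.07. Ihh, a hedgehog ligand, fell by 0.87 ± 0.13 and 0.61 ± 0.13, and the C-type lectin Cd302 by 0.50 ± 0.09 and 0.52 ± 0.09. Ogn, another leucine-rich proteoglycan and one of the stellate markers summed above, was at -1.20 ± 0.23 and -0.77 ± 0.23, with a random-block adjusted p of 0.0616.

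The calls made with each compound separately were fragile for all but the 9 genes above. Nefm, Pla1a and Abcg5 each lost a call without any 1 of 4 arrays, with the larger adjusted p up to 0.082, 0.0624 and 0.0755. For Nefm and Pla1a the arrays were VC_2 replicates 2 and 3 and DDEB replicates 1 and 2, and for Abcg5 they were DDMB replicate 3, VC_2 replicates 2 and 3 and DDEB replicate 2. Cyp3a23-3a1 lost a call without any VC_1 array, DDMB replicate 2 or 3, or VC_2 replicate 1 or 2 (up to 0.179). Colq lost a call without any VC_1 or DDMB array or VC_2 replicate 2 (up to 0.179), and Pdk4 without any of the 12 arrays but DDMB replicate 1 (up to 0.203). Their mean effects stayed called throughout.

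One pair of compounds was compared at the same dose and time, by the difference of their changes. It called 0 of 21574 genes (0%), with 1249 at an unadjusted p under 0.05, 1 gene after quantile scaling and 22 with the random block. That does not show that the compounds act alike, as the 95% intervals of the difference (DDEB minus DDMB, each gene alone) show. For Crat the difference was 0.16 with an interval of -0.06 to 0.38, and for Abcd3 it was 0.06 with an interval of -0.19 to 0.31. For Nefm it was 0.40, from -0.34 to 1.14. Intervals that left out 0 included those of Sstr3 (0.06 to 0.80), Ehhadh (0.27 to 0.90), Cyp4a1 (0.43 to 1.30), Cyp2c11 (0.31 to 1.12) and Pck1 (-1.34 to -0.12), none of which passed adjustment.

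Alb, the major plasma protein of hepatocytes, changed by -0.02 ± 0.14 with DDMB and 0.03 ± 0.14 with DDEB and was not called. Its sign was not stable across scalings.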

How the data were processed

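Each of the 18 RNA samples was hybridised to 1 one-colour Agilent array, in 6 groups of 3, and all 6 groups entered the fit so as to share 1 estimate of the spread. Per the file headers, Feature Extraction 10.7.1.1 gave the deposited intensity, which is the processed Cy3 intensity after background subtraction and detrending. The authors also deposited tables of linear signal for each chip lot, used as an alternative. The headers name build rn4, and no coordinates of probes are given.

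Log2 intensity was averaged over a probe's unflagged spots and the array's 75th percentile subtracted. A probe was kept when well above background on all 3 arrays of a group (25306 probes). The brightest probe stood for a gene, which gave 21574 genes, 10788 with a plain symbol. Of 45598 probes, 20941 were named through accessions in RefSeq GRCr8. R 4.3.3 and limma 3.58.1 were used for the contrasts, adjusted by Benjamini-Hochberg with a threshold of 0.05, and checked on simulated data. The simulated arrays varied independently of each other, so that check does not cover deviations common to both control groups. For 3 arrays a group, their number limits the precision.

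Named genes were those with a plain symbol, a called mean effect and arrays apart in both, the 15 largest each way by the smaller change, up to 4 members of each list by mean effect, and a fixed set. Members and lists were chosen with earlier results of these data known. Genes among the 38 called with each compound, Ehhadh, Cat, Cpt2, Plin2, Mgll, Angptl4, Acot4, Decr2, Tnfrsf21 and Cpne9 were named after their values were seen. The planned normexp correction used median spot intensity, as the files used here hold no mean signal column. By number, every correlation of VC_1 with VC_2 arrays was over 0.1. For DDMB with VC_1 the values were 0.557, -0.421 and 0.0917, so numbers did not pair that compound with its control. For DDEB with VC_2 they were 0.431, 0.0962 and 0.49, so replicates 1 and 3 deviated together and replicate 2 hardly did. Same-numbered VC_1 and DDEB arrays, which are not compared, gave 0.476, 0.118 and 0.526, and the random block ties only the DMSO arrays.

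Alternatives were quantile scaling, normexp, other filters on dim probes, only the 12 arrays, slide or replicate number as a block, all 6 DMSO arrays as control, the deposited tables and leaving out each array. Some results are not reported here.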

Additional observations from a re-analysis of the deposited data

Results flagged for a closer look

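Creb3l3 and Ces2c, among the list genes, had DDMB arrays all below VC_1 and DDEB arrays all above VC_2. The difference of the changes (DDEB minus DDMB) was 0.56 for Creb3l3, with an adjusted p of 0.776, and 0.25 for Ces2c, with an adjusted p of 0.701, so neither passed the test of the difference. Groups of 3 arrays were not tested for single outlying arrays.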

How the results depend on the processing

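The counts below follow the order DDMB, DDEB, both on the larger p, mean effect, difference, and arrays apart in both, and start from 120, 213, 9, 665, 0 and 770. Quantile scaling moved DDEB to 325, the larger-p count to 18 and the difference to 1. Normexp correction gave 74, 72 and a mean effect of 358. Probes above background on all 12 arrays gave a larger-p count of 27, and no filter gave 49, 0, 308 and 11 for DDMB, larger p, mean and difference. Only the 12 arrays gave 14, 4, 0 and 123. Slide as a fixed block gave 245, 359 and, for the difference, 1. These are the counts without DDEB replicate 3, since that array was alone on its slide. The replicate block gave 436 for DDEB and 1180 for the mean effect. The numbers do not pair DDMB with VC_1, while DDEB replicates 1 and 3 deviated with the same-numbered arrays of VC_2 and of VC_1. These 2 counts are given here only. Over all 6 DMSO arrays, which mixes chip lots, the counts were 2810, 2647, 30, 5457 for the difference and 307 apart. The authors' deposited tables gave 0 for DDEB and 0 on the larger p. Each of these tables was fitted alone, so DDEB was tested on the VC_2 and DDEB arrays only, with fewer arrays to estimate the spread. Of the alternatives chosen after seeing the data, same-numbered DMSO arrays as a random block gave 134 for DDEB, 118 and 22, and leaving out replicate 3 of both control groups gave 94, 3, 1 and 2254. The ranges with single arrays left out were 39 to 245, 51 to 359, 0 to 14, 281 to 958, 0 to 1 and 831 to 1300. The causes were not tested.

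Under the alternatives other than leaving out single arrays, 5 gene changes turned sign, all of Alb or Car11, and 165 lost a call. Of gene changes and list medians together, 1486 kept sign and side of the threshold or moved by less than the spread. List medians were scored by the size of their move and not by sign, and some crossed 0. With single arrays left out as well, the median of the CAR and PXR targets ran from -0.2 to 0.188 with DDMB. Alb was at -0.0266 (DDEB) and -0.0533 (mean) under quantile scaling and at -0.133 and -0.141 without replicate 3 of both control groups, and with single arrays left out it ran from -0.149 to 0.109 with DDMB, -0.133 to 0.119 with DDEB and -0.0772 to 0.0704 for the mean. Car11 was at 0.00348 with DDEB under normexp.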

Other observations

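In the bile acid list of 20 measured genes 1 rose and 1 fell, beside 1.97% and 1.11% of all genes tested. Slco1a1, an uptake carrier for bile acids and other organic anions, fell by 0.72 with DDMB and by 0.63 with DDEB, and Abcc2, the canalicular exporter of conjugates, rose by 0.47 and 0.26. Both calls were lost with the DMSO arrays as a random block (adjusted p 0.062 and 0.111). Of 32 conjugation genes 3 rose and 2 fell, beside the same shares of all genes, among them Gstm2 at 0.53 and 0.57. With the random block only Mgst3, which fell, stayed called, and Gstm2, Gstp1, Ugt2b1 and Ugt2b15 did not (adjusted p 0.0664, 0.113, 0.103 and 0.166). Aldh3a1, an aldehyde dehydrogenase of the AhR list, changed by -0.94 and -0.20 with a mean adjusted p of 0.0013. None of 30 ATF4 stress response genes, 31 cell cycle genes or 18 hepatocyte transcription factors was called by limma for the mean effect. Over all genes tested 3.08% were called, so a count of 0 in lists of this size says little about them.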
